A study of Rattus norvegicus with 4 samples.

Results

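The 8 genes Pmp22, Mbp, Prx, Mag, Egr2, Gjb1, Mal and Pllp, which myelinating Schwann cells use to build and maintain peripheral myelin, were followed in RNA sequencing of whole rat dorsal root ganglia (DRGs). They were chosen by gene symbol among the genes annotated as protein-coding, and are 8 of 22293 such genes and of 33506 genes counted in all. The study asked how cisplatin, a platinum-based chemotherapeutic given early in life, affects sensory ganglia. Each gene has 4 values, from 2 vehicle and 2 cisplatin libraries of wild-type Wistar rats. Cisplatin was given by intraperitoneal injection at 0.3 mg/kg on postnatal days 14 and 16, and the vehicle was phosphate-buffered saline. The study's methods place tissue collection on postnatal day 23, while the labels of the samples read 16 days post-treatment. Several lumbar DRGs were pooled for each library, rats of both sexes were used in the study, and the sex behind each library is not given in the sources used here. The titles number a rat for each library, so replicates were taken as separate animals.

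In peripheral nerve, a Schwann cell wraps its membrane around a single stretch of axon and compacts it into myelin, which speeds conduction. DRGs hold the cell bodies of sensory neurons, wrapped by satellite glia, together with the proximal stretches of their axons and the Schwann cells around them. Myelin gene transcription in these cells depends on the transcription factors Sox10 and Egr2 and on neuregulin signals from the axon.

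Each of the 8 genes has a distinct place in this system. Egr2 (also called Krox20) is the transcription factor that switches on the myelin programme. Pmp22 is a membrane protein of compact myelin, and Mbp holds the cytoplasmic faces of the compact membrane together. Mag sits in the membrane next to the axon, and Prx (periaxin) is a scaffold that links the outer Schwann cell membrane to the basal lamina. Gjb1 encodes connexin 32, a gap junction channel of uncompacted myelin, while Mal and Pllp (plasmolipin) encode proteolipids of myelin membranes and vesicles.

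All 8 genes were matched by symbol to a table of start-site sequences from RefSeq on the GRCr8 rat assembly. The 250 bases before the annotated start are shown for Prx, which had the most negative difference between the groups, and Mag, both with motif matches, and for Pmp22 and Gjb1, whose differences were nearest 0 and which had no match. The windows are chr1:91914171-91914420 on the plus strand for Prx, chr1:95291045-95291294 on the minus strand for Mag, chr10:48294682-48294931 on the plus strand for Pmp22 and chrX:70541595-70541844 on the plus strand for Gjb1. Capitals mark matches, on either strand, to GTGGGNG, a core of the Egr family motif, or to ACAAAG, a core of the Sox family motif.
Prx: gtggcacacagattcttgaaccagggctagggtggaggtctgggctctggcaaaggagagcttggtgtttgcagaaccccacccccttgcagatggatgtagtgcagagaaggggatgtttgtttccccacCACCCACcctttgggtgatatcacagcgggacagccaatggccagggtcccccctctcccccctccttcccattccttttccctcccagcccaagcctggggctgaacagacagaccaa
Mag: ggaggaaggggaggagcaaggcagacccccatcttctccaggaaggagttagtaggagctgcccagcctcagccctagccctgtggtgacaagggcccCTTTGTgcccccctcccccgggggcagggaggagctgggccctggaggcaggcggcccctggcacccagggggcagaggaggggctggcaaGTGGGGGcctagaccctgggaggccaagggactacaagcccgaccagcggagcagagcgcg
Pmp22: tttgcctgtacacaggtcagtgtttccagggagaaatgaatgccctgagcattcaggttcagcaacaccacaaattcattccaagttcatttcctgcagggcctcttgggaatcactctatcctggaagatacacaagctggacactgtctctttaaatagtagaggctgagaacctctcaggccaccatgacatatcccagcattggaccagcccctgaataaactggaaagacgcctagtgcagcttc
Gjb1: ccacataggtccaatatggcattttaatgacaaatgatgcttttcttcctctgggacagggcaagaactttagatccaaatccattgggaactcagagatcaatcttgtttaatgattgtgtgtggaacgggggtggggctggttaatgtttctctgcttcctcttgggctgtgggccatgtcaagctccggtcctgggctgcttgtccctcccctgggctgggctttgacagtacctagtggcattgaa
The Egr core lay in 3 of the 8 windows, those of Mbp, Prx and Mag, and in 25.6% of all 33469 windows of this length. The Sox core lay in 2 of the 8, Mbp and Mag, and in 16.3% of all windows. The longer Egr motif GCGTGGGNG, which contains the shorter core, lay in none of the 8 and in 1.46% of all windows. Of the windows not shown, those of Egr2, Mal and Pllp had neither core, at log2 fold changes of -0.73, -0.60 and -0.29. That of Mbp had both, at -0.43. A link between motif matches and fold changes was not tested. These matches are letters in a short window and no binding was measured.

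The 4 libraries held between 21384801 and 25618417 counts, and 3 counts correspond to between 0.118 and 0.152 CPM (counts relative to the library total, scaled by TMM), so that none of the 8 genes was near the counting limit. Vehicle replicate 1 stood apart in the markers of other tissues. Olig1, a transcription factor of oligodendrocytes, had 443 counts there and 9, 8 and 6 counts in vehicle replicate 2 and cisplatin replicates 1 and 2, while Olig2 had 56, 0, 0 and 0. Mobp, a myelin gene of the central nervous system, had 989, 43, 19 and 47 counts, and the muscle enzyme gene Ckm had 2213, 53, 111 and 18. The summed level of the 8 listed oligodendrocyte markers, of which 5 passed the filter on low counts, was 126 CPM in vehicle replicate 1 and lay between 33.7 and 46.2 CPM in the other libraries. Oligodendrocytes also use several of the 8 genes, among them Mbp, Mag, Mal and Pllp. The part of such cells in the members' values in vehicle replicate 1 was not tested. Fold changes and counts of separated genes are therefore also given without that library.

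Compared per gene length, in FPKM (fragments relative to gene length and library size), the 8 genes spanned from the most abundant transcripts of the ganglion to moderate ones. By mean FPKM over the 4 libraries, Pmp22 ranked 2 among protein-coding genes with a mean of 8687, and Mbp ranked 7 with 4858. Mal ranked 46 with a mean FPKM of 996, and Prx ranked 61 with 823. Pllp averaged 307 FPKM at rank 241, Mag 109 at rank 758, Gjb1 42.4 at rank 2017 and Egr2 32.2 at rank 2629. The order of the 8 genes was the same in every library except that Prx stood above Mal in vehicle replicate 1, at 800 against 631 FPKM. Neighbours in this order overlapped over the 4 libraries, as Mal did with Prx (357 to 1763 against 240 to 1414 FPKM) and Gjb1 with Egr2 (22.9 to 60.8 against 12.5 to 56.4 FPKM), except Mbp and Mal: the lowest Mbp value, 1988 FPKM, lay above the highest of Mal. Together, the 8 genes took 3.0% of all counts in vehicle replicate 1, 6.14% in vehicle replicate 2, 1.82% in cisplatin replicate 1 and 4.94% in cisplatin replicate 2.

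**Figure D1:**
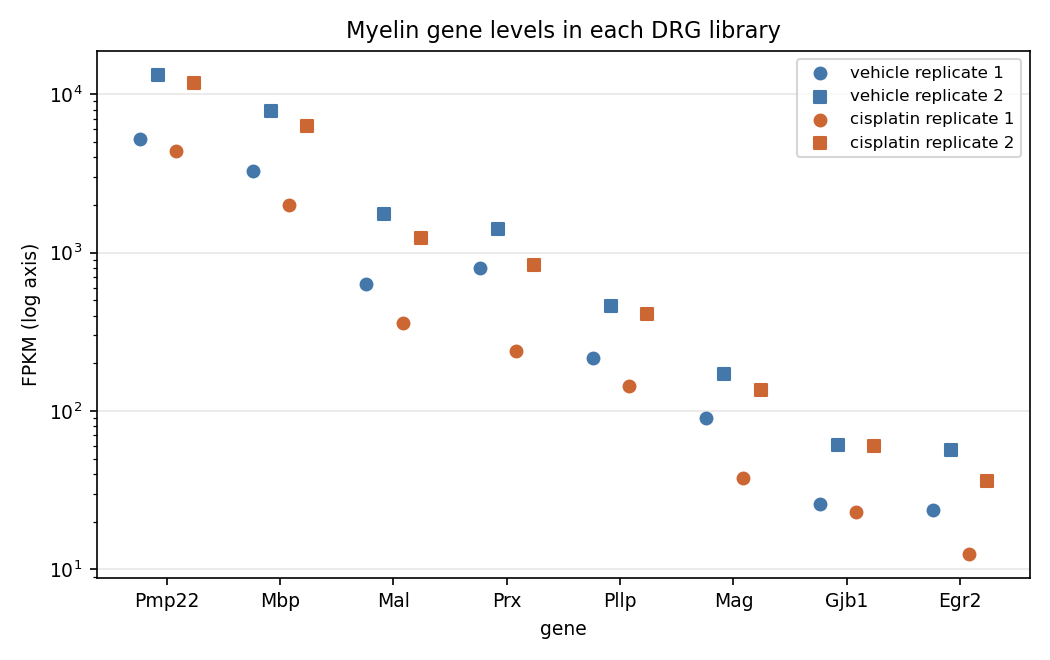
FPKM of each myelin gene (log axis) in each of the 4 DRG libraries, with 1 point per library and no averaging. Every gene has its highest point in vehicle replicate 2 and its lowest in cisplatin replicate 1, and Pmp22 runs from 4377 to 13287 FPKM.

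Among the compact myelin genes, Pmp22 (ENSRNOG00000003338, chromosome 10, bases 49538588 to 49568583 of Rnor_6.0, plus strand) had 10613 CPM in vehicle replicate 1, 27166 in vehicle replicate 2, 8870 in cisplatin replicate 1 and 23948 in cisplatin replicate 2. Mbp (ENSRNOG00000016516, chromosome 18, bases 79326738 to 79437310, plus strand) had 11337 and 27170 CPM in the vehicle libraries and 6854 and 21797 CPM in the cisplatin libraries, given like all later pairs in the order of replicates 1 and 2. For both genes the second library of each group was high and the other low, and the groups overlapped. The Mbp gene contains a microRNA gene on the same strand, which had 0 counts in every library, and no other gene of the deposited table overlaps any of the 8.

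Prx (ENSRNOG00000018369, chromosome 1, bases 84304228 to 84324560, plus strand) had 3779 and 6749 CPM in the vehicle libraries and 1135 and 3947 CPM in the cisplatin libraries. Mag (ENSRNOG00000021023, chromosome 1, bases 89345429 to 89360733, minus strand) had 236 and 457 CPM, and 99.5 and 354 CPM. For Prx, cisplatin replicate 2 lay just above vehicle replicate 1, so that the groups overlapped by a narrow margin, whereas for Mag the overlap was wider. Gjb1 (ENSRNOG00000003746, chromosome X, bases 71272042 to 71279977, plus strand) had 44.7 and 106 CPM in the vehicle libraries and 39.7 and 104 CPM in the cisplatin libraries, so that same-ranked libraries of the 2 groups lay close together.

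Mal (ENSRNOG00000015445, chromosome 3, bases 120209647 to 120233655, minus strand) had 1463 and 4131 CPM with vehicle, and 830 and 2859 CPM with cisplatin. Pllp (ENSRNOG00000016558, chromosome 19, bases 10731855 to 10752641, plus strand) had 326 and 696 CPM, and 217 and 620 CPM. These proteolipid genes again had overlapping groups. Egr2 (ENSRNOG00000000640, chromosome 20, bases 22454463 to 22459025, minus strand), the regulator, had 77.9 and 188 CPM in the vehicle libraries and 41.4 and 119 CPM in the cisplatin libraries, with the same order of libraries as the genes it regulates.

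For each of the 8 genes the libraries ran from vehicle replicate 2 at the top through cisplatin replicate 2 and vehicle replicate 1 to cisplatin replicate 1 at the bottom. The gap within a group was large: vehicle replicate 2 held between 1.79 times (Prx) and 2.82 times (Mal) the level of vehicle replicate 1, and cisplatin replicate 2 held between 2.63 times (Gjb1) and 3.56 times (Mag) that of cisplatin replicate 1. Replicate 2 was above replicate 1 in both groups for 8 of the 8 genes and for 38.2% of the 14719 protein-coding genes that passed the filter. In whole ganglia, fewer myelinating Schwann cells and less RNA per cell cannot be told apart. None of the 8 genes separated the groups, against 21.2% of all genes tested with both cisplatin libraries below both vehicle libraries and 20.6% with both above. With vehicle replicate 1 left out, both cisplatin libraries lay below vehicle replicate 2 for 8 of the 8 genes. That count follows from the order given above and adds nothing to it. The share of all genes in that setting was not computed in CPM. Vehicle replicate 2 was the highest of the 4 libraries for 8 of the 8 genes and for 4274 of the 14719 genes tested.

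No myelin gene met the criteria for differential expression, which were an adjusted p-value under 0.05 in edgeR's quasi-likelihood test with Benjamini-Hochberg adjustment and a fold change of at least 1.5. Only 0.00679% of the genes tested, 1 of 14719, met them. At an unadjusted p under 0.05 with the same fold, the count was again 0 of 8, against 5.32% of all genes that were lower and 2.80% that were higher. DESeq2 also called 0 of 8 members, against 126 of all 22293 protein-coding genes (0.565%), and 12848 of those genes received an adjusted p. Limma on log2(FPKM + 1) and log2(FPKM + 0.1) called 0 of 8 too, against 0.0272% and 0.0136% of the 14719 genes tested. The log2 fold change was below 0 for 8 of 8 genes, against 50.9% of all genes, and its median was -0.51, against -0.01 over all genes. These fold changes share 1 order of the libraries and are not 8 independent measurements.

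Prx had the most negative difference, from a mean of 5264 ± 2100 CPM with vehicle to 2541 ± 1988 CPM with cisplatin (SD, n = 2 in each group). This gave a log2 fold change of -1.05 (SE 0.76), or a fold change of 0.483, with an adjusted p of 0.662 by edgeR's quasi-likelihood test. Egr2 averaged 133 ± 77.8 CPM with vehicle and 80.3 ± 55.0 CPM with cisplatin, a log2 fold change of -0.73 (SE 0.61, edgeR adjusted p = 0.700). For both genes the standard error was nearly as large as the difference, and for the other 6 genes it was larger.

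Mag averaged 347 ± 156 and 227 ± 180 CPM, with a log2 fold change of -0.61 (SE 0.63), and Mal averaged 2797 ± 1887 and 1844 ± 1435 CPM, with -0.60 (SE 0.78). Mbp, at 19254 ± 11196 and 14326 ± 10567 CPM, had a log2 fold change of -0.43 (SE 1.19), and Pllp, at 511 ± 262 and 419 ± 285 CPM, had -0.29 (SE 0.59). Pmp22 averaged 18890 ± 11705 and 16409 ± 10662 CPM with a log2 fold change of -0.20 (SE 1.19), and Gjb1 averaged 75.4 ± 43.5 and 71.9 ± 45.6 CPM with -0.07 (SE 0.57). The adjusted p of these 6 genes in edgeR's quasi-likelihood test lay between 0.757 for Mag and 0.974 for Gjb1. An exact two-sided permutation test of 2 libraries against 2 cannot give a p below 0.333.

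The sign of most of these differences depended on single libraries. Without vehicle replicate 1, the library with oligodendrocyte and muscle transcripts, the median log2 fold change was -0.95. Without vehicle replicate 2 the median was 0.34, and without cisplatin replicate 1 it was 0.12. Without cisplatin replicate 2 it was -1.59. Prx was the only member whose difference was negative with each library left out in turn, from -2.21 to -0.40.

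**Figure D2:**
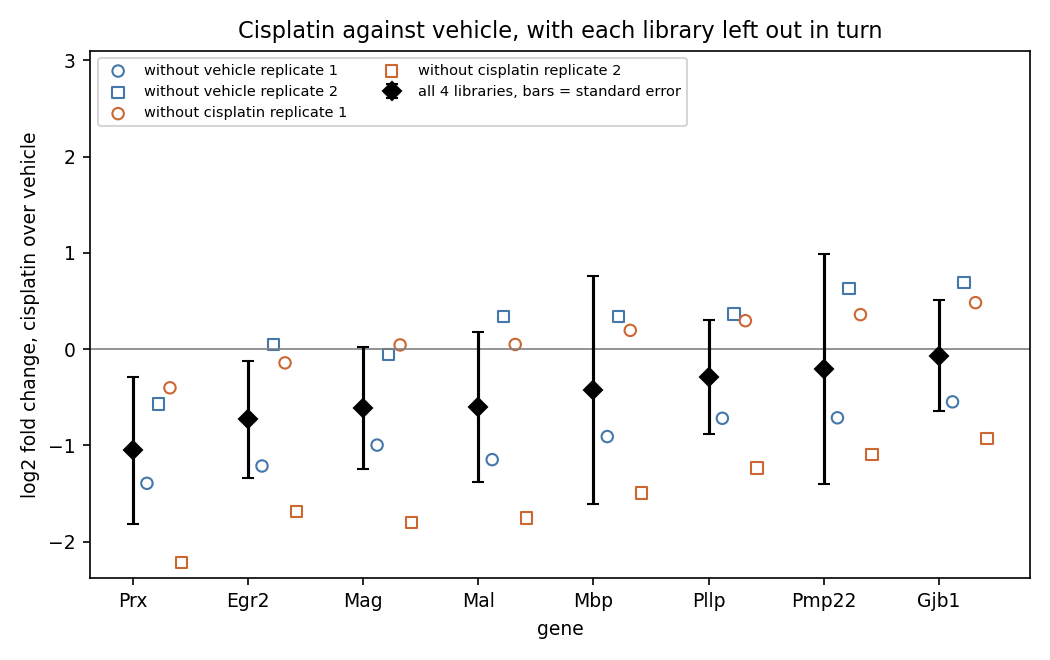
Log2 fold change of each myelin gene, cisplatin over vehicle, with all 4 libraries (diamonds, bars give the standard error) and with each library left out in turn (open symbols). Prx lies below 0 in every case, whereas Gjb1 runs from -0.93 to 0.69.

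Since Schwann lineage markers also varied between libraries, each member was set beside listed markers of that lineage in the same library. The main reference was the mean log2 CPM of 7 Schwann lineage genes that do not depend on the myelin state, which was 7.35 and 7.75 in the vehicle libraries and 7.29 and 7.65 in the cisplatin libraries. Of these 7 genes, 5 were higher in replicate 2 than in replicate 1 of both groups, while Gfra3 and Col28a1 were lower there. The reference therefore mixes unlike profiles, and values relative to it are not levels per Schwann cell. The values are given as log2 CPM above this reference, in the order of replicates 1 and 2.

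Prx was the only member whose groups did not overlap on this scale, against 16.5% of all genes with both cisplatin libraries lower. It stood at 4.54 and 4.97 with vehicle and at 2.86 and 4.30 with cisplatin, a difference of the means of -1.18. Mag stood at 0.54 and 1.09 with vehicle and at -0.65 and 0.82 with cisplatin, and Egr2 at -1.06 and -0.19 with vehicle and at -1.92 and -0.75 with cisplatin. For Mag and Egr2 the cisplatin mean was lower by 0.73 and 0.71 log2 units, but cisplatin replicate 2 lay above vehicle replicate 1. Without vehicle replicate 1 both cisplatin libraries lay below vehicle replicate 2 for 7 of 8 members, all but Gjb1, against 21.5% of all genes. The count was 8 without cisplatin replicate 2, and 1, Prx, without vehicle replicate 2 or without cisplatin replicate 1. In the last setting 1 member, Gjb1, lay above both vehicle libraries. Among settings with a library left out, the share of all genes was computed only for vehicle replicate 1. The counts of the other settings therefore have no share to be read against.

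Mal stood at 3.17 and 4.26 with vehicle and at 2.40 and 3.83 with cisplatin. Mbp stood at 6.12 and 6.98 with vehicle and at 5.45 and 6.76 with cisplatin, and Pllp at 1.0 and 1.69 with vehicle and at 0.47 and 1.63 with cisplatin. In these members replicate 2 of each group stayed above replicate 1 on this scale too. Pmp22 stood at 6.03 and 6.98 with vehicle and at 5.82 and 6.90 with cisplatin, and Gjb1 at -1.86 and -1.02 with vehicle and at -1.98 and -0.95 with cisplatin, so that for both the groups covered nearly the same range.

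**Figure D3:**
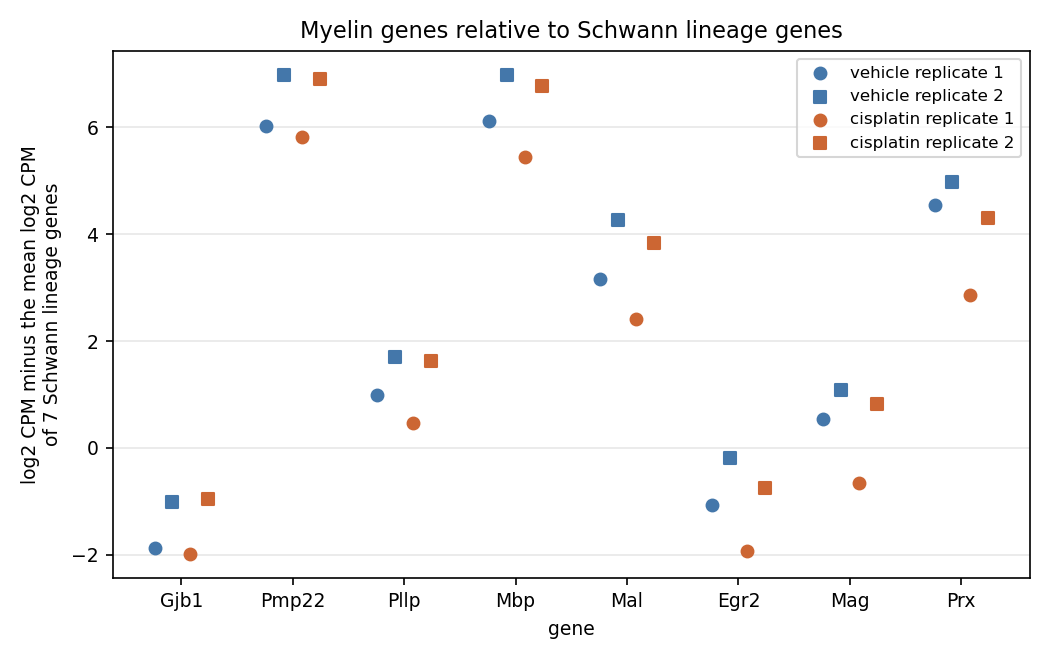
Log2 CPM of each myelin gene less the mean log2 CPM of 7 Schwann lineage genes in the same library (log2 units, 1 point per library). The cisplatin libraries lie below both vehicle libraries for Prx alone, at 2.86 and 4.30 against 4.54 and 4.97, and overlap them for the other 7 genes.

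With other references Prx separated again. Relative to 18 other genes of myelin structure, Prx alone separated, at 3.75 and 4.20 with vehicle and 2.75 and 3.56 with cisplatin, against 4.82% of all genes. This reference also mixes unlike profiles, since 13 of its 18 genes were higher in replicate 2 than in replicate 1 of both groups. It includes Mobp, at 39.5 CPM in vehicle replicate 1 and 2.18 CPM in vehicle replicate 2. Relative to Sox10 and S100b, chosen after the data were seen, Prx, Mag and Egr2 separated, against 9.32% of all genes. On that scale Mag stood at -1.21 and -1.18 with vehicle and at -2.44 and -1.43 with cisplatin, and Egr2 at -2.81 and -2.47 with vehicle and at -3.70 and -3.00 with cisplatin. With all 4 libraries, Prx was therefore the only member that separated under every reference used. Without vehicle replicate 1, the same 7 members lay below vehicle replicate 2 under both of these references as well, against 7.72% of all genes for the myelin structure reference and 10.1% for Sox10 and S100b. Without cisplatin replicate 2 the counts were 4 and 8. They were 1 and 3 without vehicle replicate 2, and again 1 and 3 without cisplatin replicate 1. Members above vehicle numbered 4 under the myelin structure reference and 0 under Sox10 and S100b without vehicle replicate 2. Under each reference 1 member lay above vehicle without cisplatin replicate 1. Shares of all genes were not computed for these settings, so these counts have no share to be read against. Drp2, whose protein binds Prx, had 15064 and 23197 counts with vehicle and 7751 and 17768 with cisplatin. Its log2 fold change was -0.75 (SE 0.54, edgeR adjusted p = 0.662), and it was named after its values were seen.

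Ratios between members need no outside reference. Of the 28 pairs, 21 had count ratios that did not overlap between the groups, including all 7 pairs with Prx and all 7 with Gjb1. Among pairs of all genes tested the share was 41.7%, and among pairs of the 1610 genes that had the members' order of libraries it was 24.4%. Without vehicle replicate 1, 25 of the 28 pairs separated, against 73.6% of pairs of all genes. These again included all 7 with Prx and all 7 with Gjb1. There were 1598 and 1475 Prx counts per 100 Mag counts with vehicle, and 1140 and 1115 with cisplatin. The ratio of Prx to Gjb1 was 84.6 and 63.6 with vehicle, and 28.6 and 37.9 with cisplatin, and that of Mbp to Gjb1 was 254 and 256 with vehicle, and 173 and 209 with cisplatin. The ratio of Egr2 to Gjb1 was 1.75 and 1.77 with vehicle, and 1.04 and 1.14 with cisplatin. The ratio of Pmp22 to Gjb1 was nearer in the 2 groups, at 238 and 256 with vehicle and 224 and 230 with cisplatin. These pairs share genes and libraries, and each rests on 2 libraries against 2.

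Prx was also the longest of the 8 genes as measured, at 4626 bases. With a correction for gene length fitted in each library, its log2 fold change was -0.87. The part of gene length or RNA quality in the difference was not tested further.

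The remaining genes of the pathway gave 0 calls in each list. Of 18 other genes of myelin structure and membranes, 14 had negative log2 fold changes, with a median of -0.17. Within this list Pmp2, a lipid carrier of myelin, had a log2 fold change of -0.01, and Cd9, a tetraspanin, had -0.15. The list ran from -3.93 for Mobp, which rested on vehicle replicate 1, to 0.35 for Cd82.

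Of 16 genes of myelin lipid synthesis and trafficking, 13 were negative, with a median of -0.26. Ndrg1, linked to a hereditary demyelinating neuropathy, had a log2 fold change of -0.45. Ugt8 and Fa2h, enzymes of galactolipid synthesis and of fatty acid hydroxylation, had -0.53 and -0.54, and the list ran from Fgd4 at -1.21 to Mal2 at 0.39.

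All 11 measured promyelinating regulators beside Egr2 had negative log2 fold changes, with a median of -0.24, and none passed the test. Sox10 had 4982 and 8031 counts with vehicle and 5046 and 8298 with cisplatin, a log2 fold change of -0.14 (edgeR adjusted p = 0.928). The chromatin regulators Hdac2 and Chd4 had -0.10 and -0.34, and the list ran from -1.15 for Tead1, a partner of the growth regulators Yap and Taz, to -0.06 for Nab2, a cofactor of Egr2. Among 8 regulators that oppose myelination the median was -0.12, from -0.52 for Pax3 to 0.16 for Sox2. Jun, which marks the repair state of Schwann cells after injury, had 2516 and 2391 counts with vehicle and 2607 and 2456 with cisplatin, a log2 fold change of -0.10, so that its libraries were nearly level where those of the members were not.

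Of 16 signals and receptors for Schwann cell myelination, 15 were negative, with a median of -0.42. Erbb2, the signalling partner of the neuregulin receptor Erbb3, had the lowest value, with 298 and 454 counts with vehicle and 130 and 239 with cisplatin (log2 fold change -1.19, SE 0.47, edgeR adjusted p = 0.516). The laminin and basal lamina receptor genes Itga6, Dag1 and Itgb1 had -0.76, -0.38 and -0.11, and the growth factor gene Bdnf was highest at 0.42.

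Markers of the Schwann lineage as a whole differed less between the libraries than the members did. Their summed level was 2274 and 3858 CPM with vehicle and 2173 and 3605 CPM with cisplatin. Over 7 genes the median log2 fold change was -0.04, from -0.46 for Erbb3 to 0.13 for Gfra3, which sensory neurons also express. S100b, a calcium-binding protein of Schwann cells, had 37602 and 52197 counts with vehicle and 37339 and 60309 with cisplatin (log2 fold change -0.04). The 8 members summed to 27876 and 66663 CPM with vehicle and 18086 and 53748 CPM with cisplatin. Among 7 genes of non-myelinating and immature Schwann cells the median was 0.05, from Gfap at -1.20 to Gap43 at 0.37.

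The marker lists of other cells differed in whether they followed the members. Sensory neuron markers summed to 33767 and 25970 CPM with vehicle and 42124 and 29916 CPM with cisplatin, the reverse of the order of libraries seen in the members. Their median log2 fold change was 0.36, and 0 of 12 were negative. Satellite glia markers ranged from 4885 to 5404 CPM, with a median of -0.03. Fibroblast and meninges markers had a median of -0.47, close to that of the members, with 6 of 8 negative and 7 of 8 higher in replicate 2 than in replicate 1 of both groups. They summed to 9043 and 12402 CPM with vehicle and 4437 and 8926 CPM with cisplatin, so that vehicle replicate 2 was highest and cisplatin replicate 1 lowest, as for the members. The medians were -0.22 for endothelial markers, 0.04 for perineurial markers, 0.03 for macrophage markers and -0.01 for erythrocyte markers, while oligodendrocyte and muscle markers had -0.73 and -3.26, both with their high level in vehicle replicate 1. The part of the neuronal or fibroblast share in the members' CPM was not tested.

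**Figure D4:**
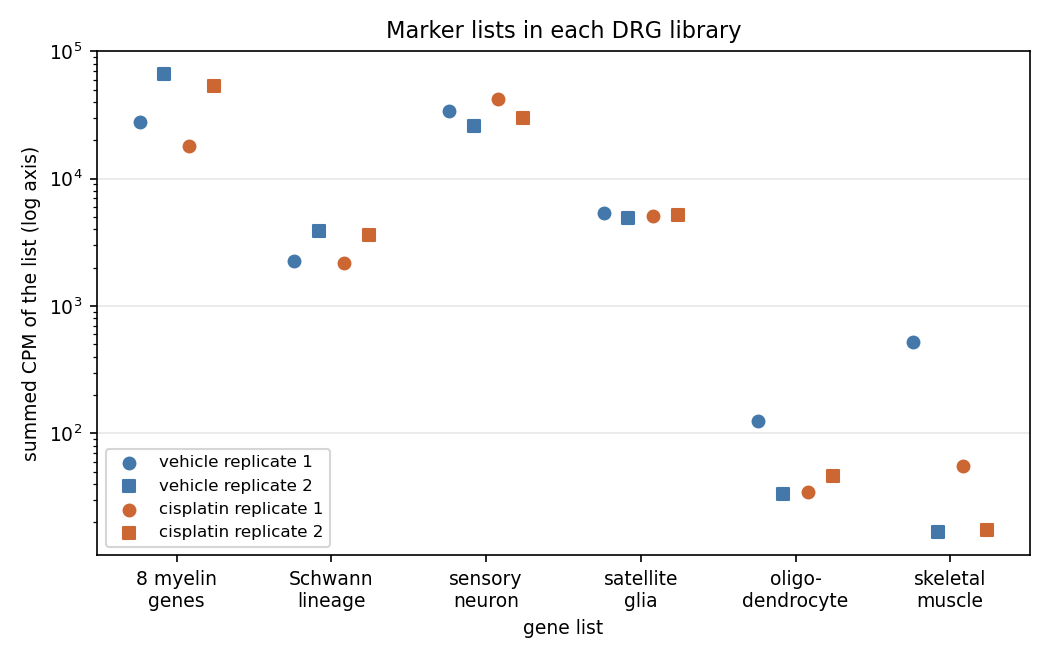
Summed CPM of the myelin genes and of marker lists (log axis) in each DRG library, 1 point per library. The myelin genes run from 18086 to 66663 CPM, sensory neuron markers run in the reverse order of libraries, and the oligodendrocyte and muscle markers are high in vehicle replicate 1, at 126 and 523 CPM.

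Other genes shared the members' profile over the 4 libraries closely. The mean profile of the 8 members, as log2 CPM less each gene's own mean, was -0.30 and 0.89 in the vehicle libraries and -1.11 and 0.51 in the cisplatin libraries. Among 11052 genes with a mean of at least 5 CPM, the 10 nearest by root-mean-square difference over 4 libraries were Sema5a (0.0211), P2ry2 (0.0344), Gatm (0.0384), Fa2h (0.0390), Icoslg (0.0471), Car13 (0.0544), Mboat1 (0.0634), Aif1l (0.0661), Cyp39a1 (0.0667) and Padi2 (0.0714), where the median gene lay at 0.786. Fa2h was the only one of the 10 on the fixed lists. Sema5a, a semaphorin guidance molecule, had 9020 and 16628 counts with vehicle and 5191 and 15197 with cisplatin. The members themselves lay between 0.0470 for Mbp and 0.360 for Prx from their own mean, with Gjb1 at 0.260, so that Prx and Gjb1 were the members least like the rest.

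**Figure D5:**
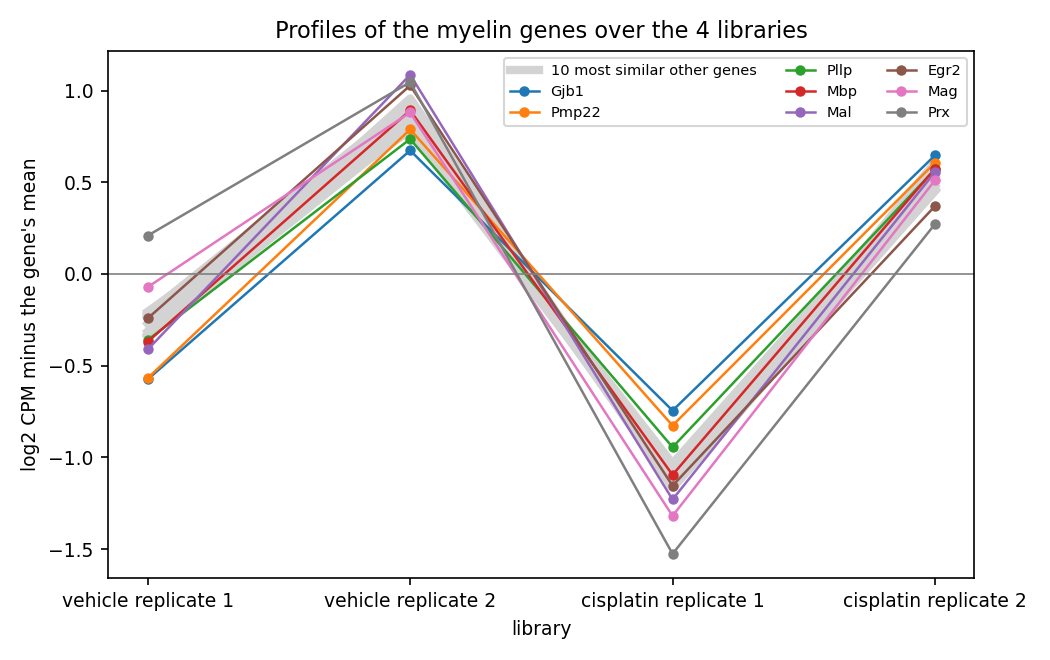
Log2 CPM of each myelin gene less its own mean in the 4 libraries (coloured lines) with the 10 most similar other genes (grey), where lines join the values of a gene and imply no order of libraries. The mean of the members runs from -1.11 in cisplatin replicate 1 to 0.89 in vehicle replicate 2, and Prx lies farthest from it.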

How the data were processed

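Whole lumbar DRGs were sequenced as 4 libraries, 2 per group, and samples were grouped by the treatment in their labels. The authors mapped trimmed reads to the Rnor_6.0 rat genome with HISAT2 2.0.5, and the submitters' processing notes also name StringTie 1.3.3b and featureCounts 1.5.0-p3. They deposited raw counts per gene, which are not normalised, and the strand setting of the counting is not given in the sources used here. The authors also deposited FPKM values, which in each library are the counts over gene length times a constant. Depth was 21384801 to 25618417 counts per library. The floor of 3 counts covers counting error only.

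Protein-coding genes kept by filterByExpr (14719 of 22293) were normalised with TMM and tested in R 4.3.3 by edgeR 4.0.16 (functions glmQLFit, then glmQLFTest) without a block, with Benjamini-Hochberg adjustment over all genes tested. Standard errors were computed as the fold change (log2) over the root of F, and log2 CPM used a prior count of 2. DESeq2 1.42.0, limma 3.58.1 on log2(FPKM + 1) and log2(FPKM + 0.1), other normalisations and filters, all biotypes, the earlier quasi-likelihood fit, the replicate block, a gene length offset (lowess, span 0.3) and each library left out were alternatives. The fits were tested on simulated data. Members, gene lists and tests were chosen with earlier results of these data known. Beside the members, the text names Sox10, S100b, Jun and the 10 genes nearest in profile. From each list of regulators, myelin and Schwann genes it names the lowest and highest fold changes and some of the 3 most abundant genes. Drp2 and the oligodendrocyte and muscle genes of vehicle replicate 1 were chosen after their values were seen. Foxd3, Pou3f1 and Hdac1 were not found under these symbols. Promoter coordinates are GRCr8 and gene coordinates Rnor_6.0. Protein sequences were not used here, and results for some single genes of the lists are not reported here.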

Additional observations from a re-analysis of the deposited data

How the results depend on the processing

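The count of 0 called members held with DESeq2's size factors, library size alone, both other filters, all gene biotypes and the earlier quasi-likelihood fit. It also held with the length correction, DESeq2 and limma on FPKM at both pseudocounts. These settings called few genes of any kind, from 0.00618% of all genes with all biotypes to 0.565% with DESeq2. With the replicate block, 4 of 8 members were called in edgeR's quasi-likelihood test, against 11.3% of all genes: Prx (log2 fold change -1.25, adjusted p = 0.00493), Mag (-0.81, 0.00929), Egr2 (-0.78, 0.00185) and Mal (-0.67, 0.0148). With the block and the length correction 4 were called again, with Prx at -1.07, against 7.35% of all genes. Same-numbered libraries are different rats and share only the number in their titles, and the deposited column names number the cisplatin libraries otherwise. No pairing of the libraries is stated, and 2 pairs cannot settle one, so the block was an alternative only. The differences between replicates 2 and 1 had a Pearson r of 0.444 between the groups, across genes, which are not independent replicates. With the mean of the Schwann lineage genes as a covariate, chosen after seeing the data, 1 member was called, against 9.43% of all genes, namely Prx (-0.99, edgeR adjusted p = 0.0445), and Pmp22 and Gjb1 had 0.062 and 0.17. Members with cisplatin below vehicle numbered 1 with the Schwann lineage reference, 1 with the other myelin genes and 3 with Sox10 and S100b. The shares of all genes were 16.5%, 4.82% and 9.32%. With libraries left out, an alternative chosen after seeing the data, the count ran from 1 to 8 for the Schwann lineage reference. It was 7 without vehicle replicate 1, against 21.5% of all genes. The count was 8 without cisplatin replicate 2 and 1 in the other settings, for which no share was computed. Under the other myelin genes without vehicle replicate 2, 1 member lay below vehicle and 4 above, again with no share computed.

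Of 104 member values under alternatives that kept all libraries, 2 reversed, both with the covariate, and of 32 with a library left out 12 reversed. With libraries left out, the median ran from -1.59 to 0.34, Pmp22 from -1.09 to 0.63, Mbp from -1.49 to 0.34, Mag from -1.80 to 0.044, Egr2 from -1.69 to 0.046, Gjb1 from -0.93 to 0.69, Mal from -1.76 to 0.34 and Pllp from -1.24 to 0.37, while Prx stayed between -2.21 and -0.40. A library left alone in its group is assumed to vary as the other group does. Depth does not limit the 8 genes, all with at least 1008 counts in every library; the 2 libraries per group do.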
